A study of Homo sapiens with 8 samples.

Results

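CITED2 and the proteins it works with were followed in cisplatin-resistant derivatives of A2780, a human ovarian carcinoma cell line. The genes were taken by their names in the array table: CITED2, EP300, CREBBP, HIF1A, TFAP2A and TFAP2C, which are 6 of 9962 gene names. They are represented by 7 cDNA clones, 2 for HIF1A and 1 for each other gene, each printed as 1 spot. The genes were chosen by measured values, the log2 ratio against the parental line. CITED2 was picked because its level relative to the parental line was among the highest on these arrays, and the other 5 genes were added for what they are known to do with it. The comparison of CITED2 with the parental line is therefore a description and carries no test.

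The derivatives CPR20, CPR40, CPR55 and CPR70 are labelled cisplatin resistant, and the parental line CPR00 is labelled cisplatin sensitive. All are A2780 cells kept in ordinary culture medium with serum. The labels do not say whether drug was present at harvest, at what oxygen level the cells grew, or whether a derivative is 1 clone. Each of the 8 arrays held the RNA of a derivative in Cy5 and that of the parental line in Cy3, with 2 arrays a derivative and no exchange of dyes. A dye effect of a single gene therefore adds to the ratio against the parental line and cancels between derivatives. Whether the 2 arrays of a line represent independent cultures is not stated in the labels. The p-values therefore measure only the spread between arrays, which may be technical. Where the replicate 1 or replicate 2 arrays were fitted alone, the p-values measure the spread among the derivatives instead.

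CITED2 is a small nuclear protein that does not bind DNA. Its acidic carboxy-terminal region binds a zinc-finger domain of the acetyltransferases CBP (CREBBP) and p300 (EP300), the same domain that the hypoxia-inducible factor HIF1A uses, so that CITED2 competes with HIF1A for them. HIF1A also induces CITED2 transcription, which makes CITED2 a feedback inhibitor of the hypoxia response, and CITED2 brings CBP and p300 to the AP-2 transcription factors TFAP2A and TFAP2C, for which it is a co-activator.

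Between 12759 and 14373 of 14427 clone spots were found on each array. A channel was taken as above background where it exceeded the median of the empty spots of that array by 2.6 scaled median absolute deviations. Of the clone spots, 29.9% to 60.5% passed it for derivative RNA, against 21% to 42.1% for parental RNA. Among markers fixed for the label, the keratin KRT18 was above background on 8 arrays in the derivative channel and on 4 in the parental channel. KRT8 was above it on 0 and 1 arrays, EPCAM on 2 and 0, and the Mullerian factor PAX8 on 1 and 0. Of 5 leukocyte, 3 endothelial, 3 fibroblast and 1 erythroid markers measured, the endothelial VWF was above it on 8 arrays in both channels and the fibroblast PDGFRB on 0 and 4, while each other was above it on fewer than 4.

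CITED2 was brighter in the derivative than in the parental channel on all 8 arrays, and after normalisation 9.05% of probes with values on all arrays were higher on 8 of 8. Its derivative channel read 9120.5 and 3665.9 in CPR20, 4097 and 1181.3 in CPR40, 4650 and 1751.6 in CPR55, and 3788.4 and 5502.9 in CPR70 (linear intensity, replicate 1 and replicate 2 arrays). The parental channel of the same arrays read 641.2 and 498, 691.5 and 146.2, 437.4 and 192.3, and 697.1 and 1010.5. The derivative channel was above background on 8 arrays and the parental channel on 6, the exceptions being CPR40 replicate 2 and CPR55 replicate 1. The clone was among the brighter ones, with 7.02% of 13186 tested probes brighter.

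After an offset of 50 and loess normalisation within each array, the log2 ratio of CITED2, derivative over parental line, was 2.77 and 2.30 in CPR20, 2.24 and 2.27 in CPR40, 2.21 and 2.34 in CPR55, and 2.68 and 2.39 in CPR70. The 8 values lay within a range of 0.56, and 9.79% of probes with a value on all arrays had a smaller range. As fold over the parental line, the derivative means were 5.78 in CPR20, 4.77 in CPR40, 4.85 in CPR55 and 5.79 in CPR70. The mean over the derivatives was 2.40 on the log2 scale (SE 0.10, 8 arrays), and 18 probes of all those tested stood higher. On the 6 arrays with both channels above background it was 2.45. It was 2.32 on the replicate 2 arrays and 2.47 on the replicate 1 arrays.

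**Figure D1:**
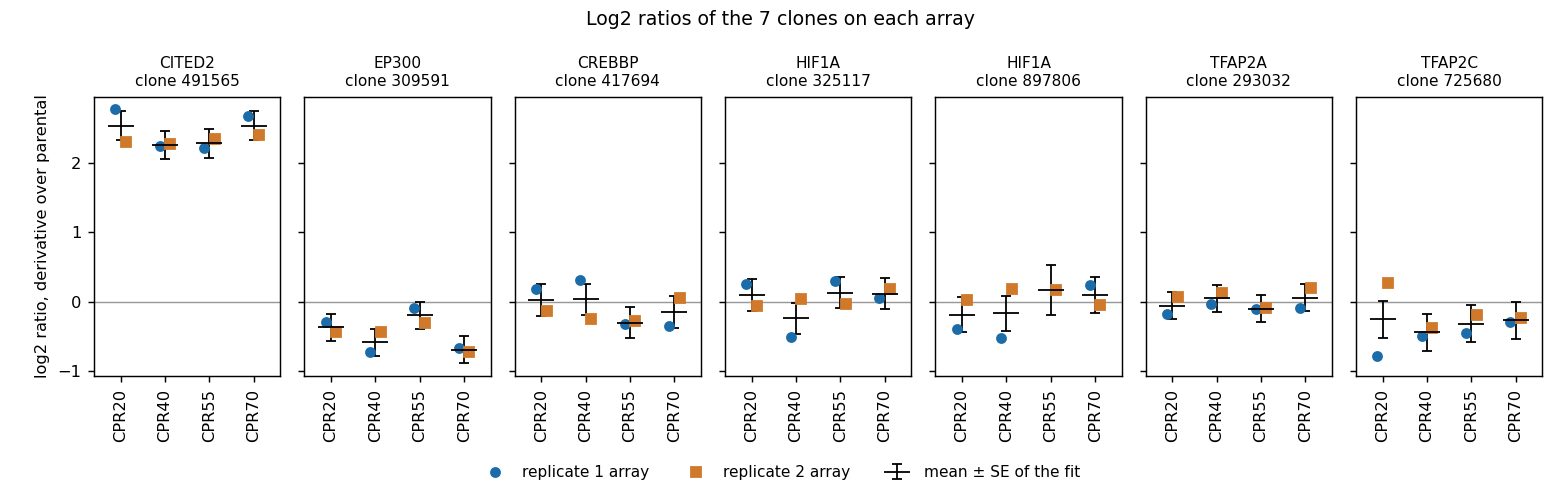
Log2 ratio of derivative over parental line (vertical axis) for the 7 clones on each array, by derivative (horizontal axis). Points are single arrays, and bars are the derivative mean ± SE of the limma fit. CITED2 lies between 2.21 and 2.77 on every array, EP300 lies below 0 on every array, and the other 5 clones scatter around or just below 0.

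**Figure D2:**
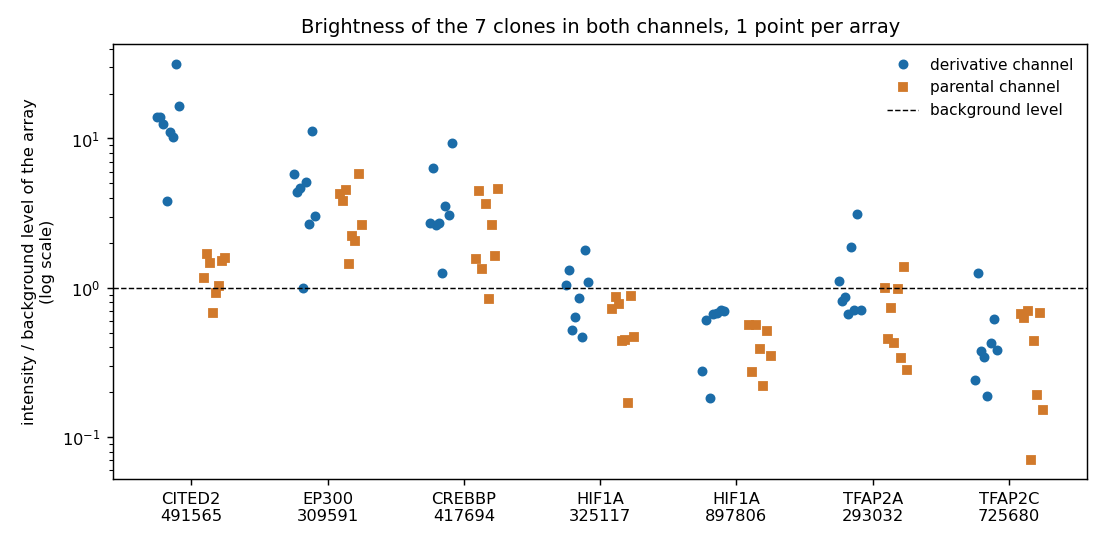
Intensity of each clone divided by the background level of its array and channel (log axis), 1 point per array, derivative channel left of the parental channel. CITED2, EP300 and CREBBP lie mostly above the dashed level in both channels, while HIF1A, TFAP2A and TFAP2C lie mostly below it.

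CITED2 lies on chromosome 6, minus strand, with the annotated gene spanning 139371807 to 139374648 (GRCh38.p14). Its promoter window around the outermost start site is shown because hypoxia response elements, through which HIF1A acts, contain the core ACGTG or GCGTG. Capitals mark every match to ACGTG or GCGTG on either strand in chr6:139374599-139374898 (RefSeq, GRCh38.p14, minus strand, written 5′ to 3′).
CITED2 promoter: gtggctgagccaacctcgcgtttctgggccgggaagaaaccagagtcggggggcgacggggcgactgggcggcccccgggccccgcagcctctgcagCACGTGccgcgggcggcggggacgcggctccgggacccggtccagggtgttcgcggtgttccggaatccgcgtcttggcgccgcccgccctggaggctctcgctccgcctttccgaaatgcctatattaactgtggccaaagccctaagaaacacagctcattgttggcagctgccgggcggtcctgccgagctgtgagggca
The window holds ACGTG on both strands in the overlapping palindrome CACGTG, from base -153 to base -148 relative to the start site, and no GCGTG. Over 35116 promoter windows of the same length, 21.4% hold ACGTG and 36.5% hold GCGTG on either strand. The AP-2 consensus GCCNNNGGC occurs 1 time in the CITED2 window and in 23.2% of all windows. At 2 inner start sites of CITED2 the windows hold GCGTG 2 times and 1 time and ACGTG 0 times. These inner windows overlap and share a GCGTG match. At their outermost start sites, EP300 and TFAP2A held 0 matches to any of the 3 motifs. There CREBBP held GCGTG 3 times and HIF1A held it 1 time, with no ACGTG in either. At an inner start site TFAP2A held GCGTG 2 times, CREBBP held only the AP-2 consensus, 2 times, and HIF1A held 0 matches. A match is a run of letters and does not show binding in these cells.

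The first comparison that the choice of genes did not use is that among the derivatives, which asks whether the level changed along the series. It was tested with limma across all probes, as any difference among the 4 derivatives, as 6 pairwise differences and as a slope along the numbers that name the lines. CITED2 did not pass (adjusted p = 1.00 for any difference in limma). The pair furthest apart was CPR70 minus CPR40, at 0.28 on the log2 scale (95% interval -0.40 to 0.96). CPR70 minus CPR20, the ends of the series, was 0.00 (95% interval -0.68 to 0.68), so differences within these intervals were not excluded with 2 arrays a derivative. The intervals are not adjusted for the number of probes, and the adjusted tests could miss larger differences as well. The slope was -0.00033 log2 units per unit of the number (SE 0.0056).

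None of the other 6 clones passed a test among the derivatives either. In limma 0 of 7 clones had an adjusted p under 0.05 for any difference, beside 0% of all 13186 probes, and 0 of 7 had an unadjusted p under 0.05, beside 2.61% (344 probes). No pairwise difference passed (0% of probes had any), and no slope did (0%, with 1.92% of probes at an unadjusted p under 0.05). Over the 42 pairwise differences of the 7 clones the smallest unadjusted p was 0.109, for EP300 in CPR70 minus CPR55 (-0.50 on the log2 scale, 95% interval -1.13 to 0.14).

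EP300, the acetyltransferase p300, was lower in the derivative channel after normalisation on all 8 arrays, beside 7.03% of probes with values on all arrays. Its derivative channel read 3836 and 1151.2 in CPR20, 1526.7 and 309.8 in CPR40, 2127.3 and 463.7 in CPR55, and 1350.9 and 1003.4 in CPR70. The parental channel read 2339.7 and 1131.2, 2135.2 and 310.3, 1054.5 and 383.7, and 2657.3 and 1690.6 on the same arrays. The log2 ratio was -0.29 and -0.44 in CPR20, -0.72 and -0.44 in CPR40, -0.08 and -0.30 in CPR55, and -0.66 and -0.72 in CPR70, with a mean of -0.45 (SE 0.097). CPR55 lay nearest to 0 and CPR70 furthest from it, and the 2 arrays of CPR70 lay below both arrays of CPR55. Before normalisation the derivative channel was the brighter one on 4 arrays, so the sign rests on the normalisation there.

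CREBBP, the acetyltransferase CBP and close relative of p300, showed no common direction. Its log2 ratio was 0.19 and -0.14 in CPR20, 0.32 and -0.24 in CPR40, -0.32 and -0.27 in CPR55, and -0.35 and 0.05 in CPR70. It was above background in both channels on 7 arrays, as EP300 was. The mean was -0.09 (SE 0.11), higher on 3 arrays and lower on 5.

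HIF1A, the oxygen-regulated subunit of the hypoxia-inducible factor, was read near background by both clones. HIF1A protein is set mainly by its degradation, which an RNA measurement does not show. Clone 325117 was above background on 4 arrays in the derivative channel and on 0 in the parental channel, and clone 897806 on 0 in both. The log2 ratio of clone 325117 was 0.26 and -0.06 in CPR20, -0.51 and 0.04 in CPR40, 0.30 and -0.03 in CPR55, and 0.05 and 0.18 in CPR70. Clone 897806 had no value on the CPR55 replicate 1 array and ranged from -0.52 to 0.24 on the other 7. The clone means were 0.03 (SE 0.11) and -0.02 (SE 0.14), and no fold is given, since a channel or both lay below background.

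The AP-2 factors were also dim. TFAP2A was above background on 3 arrays in the derivative channel and on 2 in the parental channel, and its log2 ratio ranged from -0.17 to 0.19 with a mean of -0.01 (SE 0.097). TFAP2C was above background on 1 array in the derivative channel and on 0 in the parental channel. Its log2 ratio was -0.77 and 0.27 in CPR20, -0.49 and -0.38 in CPR40, -0.44 and -0.18 in CPR55, and -0.29 and -0.23 in CPR70. The mean was -0.32 (SE 0.13), and no fold is given for a clone below background in both channels on most arrays.

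Of all 13186 probes, 1444 (11%) were called changed in the mean of the derivatives at an adjusted p under 0.05 in limma, 6.33% higher and 4.62% lower. Of the 7 clones 1 was among those higher, CITED2, 1 among those lower, EP300 (adjusted p = 0.0223), and 5 did not pass, with adjusted p from 0.176 for TFAP2C to 0.962 for TFAP2A. The genes were chosen with this ratio in view, so nothing is read from these counts. Median centring ended the EP300 call (-0.23, adjusted p = 0.535), as did the deposited log2 ratios (-0.37, adjusted p = 0.335) and the replicate 1 arrays by themselves (-0.44, adjusted p = 0.143). It was also lost without 6 of the 8 arrays in turn, with adjusted p up to 0.0799, while the log2 ratio stayed between -0.49 and -0.42 over all 8 such fits.

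**Figure D3:**
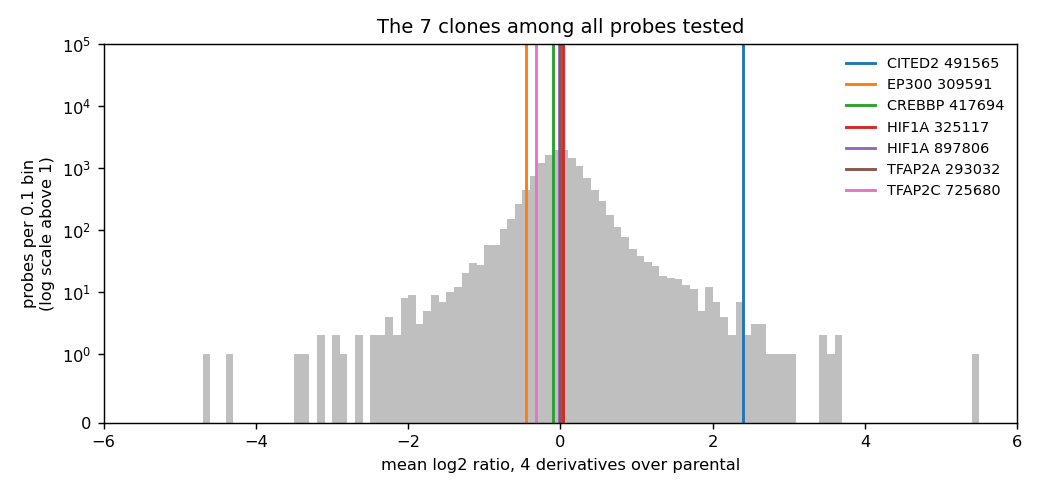
Number of probes per 0.1 bin (vertical axis, logarithmic above 1) of the mean log2 ratio of the 4 derivatives over the parental line (horizontal axis), for all 13186 probes. Vertical lines mark the 7 clones. CITED2 stands at 2.40, with 18 probes beyond it, and the other 6 lie between -0.45 and 0.03.

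Genes whose values over the 8 arrays lay near those of CITED2 were taken by the root mean square difference of log2 ratios, among 8202 genes with a value on every array. Among the 6 nearest were the lipid transporter ABCA3 (0.35), SLIT2, a secreted guidance ligand (0.45), DKFZp434G0920 (0.46), the dipeptidyl peptidase DPP7 (0.53) and the transcription factor NFIA (0.58), against a median of 2.42 over all genes compared. These 5 were above background on 8 arrays in the derivative channel. In the parental channel SLIT2, DKFZp434G0920 and DPP7 were above it on 0 arrays, and ABCA3 and NFIA on 1, while CITED2 was above it on 6. The measure weighs the size of the ratio most, and none of these genes passed the test of any difference among the derivatives (adjusted p = 1.00 in limma).

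Among the relatives and HIF machinery, CITED1, which shares the CBP/p300-binding region, stood at -0.00 (SE 0.16) and was above background on 0 arrays in either channel. Of 9 HIF subunits and regulators 4 were measured and 0 passed, beside 6.84% of all genes higher and 4.89% lower. At an unadjusted p under 0.05 stood 0 of these 4, beside 26.4% of all probes. So few genes cannot be told apart from these shares. ARNT, the constant partner that HIF1A needs to bind DNA, was above background on 6 arrays in the derivative channel and on 5 in the parental channel, at 0.12 (SE 0.092). EPAS1, the related oxygen-regulated subunit HIF2A, and VHL, which marks both subunits for degradation, were above background on 0 arrays and stood at 0.18 (SE 0.20, with -0.17 in a second clone) and -0.29 (SE 0.20).

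Of 6 co-activators that work with CBP and p300, 1 rose, 0 fell and 5 did not pass, beside 6.84% of all genes higher and 4.89% lower. NCOA3, a nuclear receptor co-activator that recruits CBP and p300, rose by 0.93 on the log2 scale (SE 0.14, adjusted p = 0.00641 in limma). It stood at 1.62 and 1.52 in CPR20, 0.92 and 0.59 in CPR40, 1.44 and 0.27 in CPR55, and 0.70 and 0.35 in CPR70, higher on 8 of 8 arrays. Its parental channel was above background on 2 arrays, and its call was lost in the replicate 2 arrays alone (0.68, adjusted p = 0.0883). The related NCOA1 and NCOA2 stood at -0.28 and -0.15, and the acetyltransferase KAT2A at 0.51 (adjusted p = 0.0796).

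Of the other factors that bind CBP or p300, 5 are given here, and none of these passed (adjusted p from 0.284 to 0.919 in limma). The interferon signal factor STAT2 stood at 0.10 and RELA, a subunit of NF-kappaB, at 0.18. The haematopoietic factor MYB stood at 0.40, CREB1, for which CBP was named, at -0.31, and MDM2, a ubiquitin ligase, at 0.05.

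Of 7 measured factors that CITED2 itself binds or assists, 1 was called higher, 0 lower and 6 did not pass, beside 6.84% of all genes higher and 4.89% lower. The 1 called was PPARG, a nuclear receptor of fat metabolism (adjusted p = 0.0153 in limma), with log2 ratios of 1.61 and 1.20 in CPR20 and 1.32 and 0.69 in CPR70 but -0.24 to 0.23 in CPR40 and CPR55. Its parental channel was above background on 0 arrays and its derivative channel on 2, so its signal secures no difference or fold, and the call was lost in 5 of 16 alternatives. MYC stood at -0.46 (adjusted p = 0.164) and TFAP2B, the third AP-2 factor on the array, at -0.10. Of 7 measured genes placed downstream of CITED2 in the mouse, 0 passed in limma, with 4 at an unadjusted p under 0.05, beside 26.4% of all probes. BMI1, a Polycomb subunit, stood at 0.31 (adjusted p = 0.105) and the cell cycle inhibitor gene CDKN2A at -0.26 (adjusted p = 0.133).

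**Figure D4:**
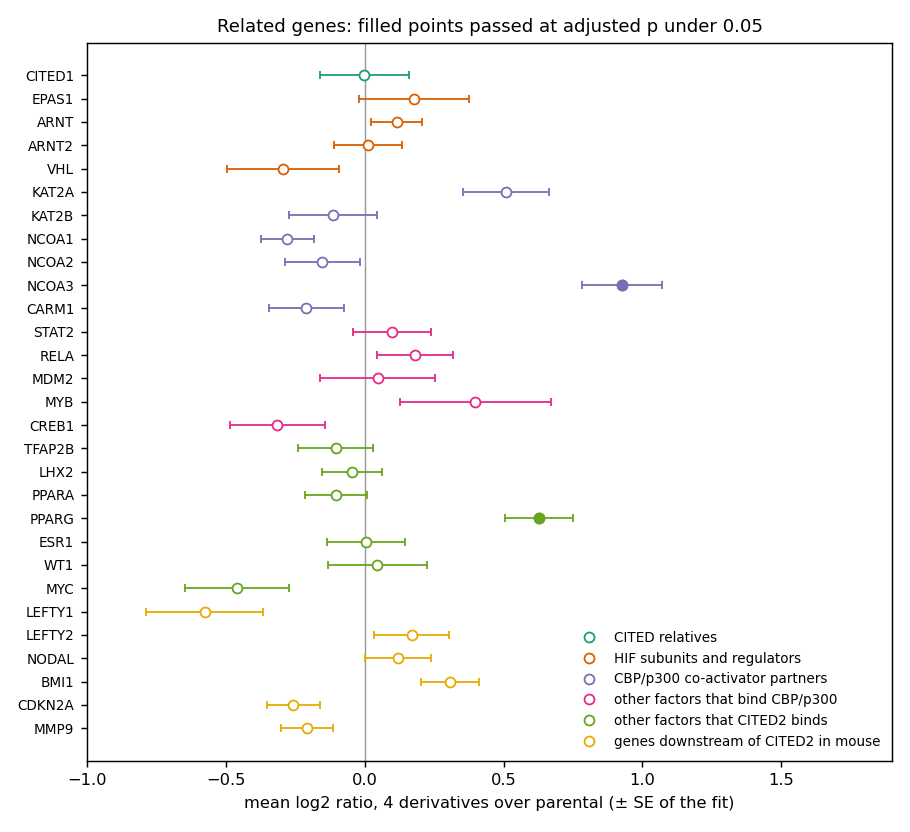
Mean log2 ratio of the 4 derivatives over the parental line (horizontal axis, ± SE of the fit) for the genes related to CITED2, CBP/p300 and HIF that are reported here, 1 gene a row. Filled points passed at an adjusted p under 0.05, NCOA3 and PPARG, both above 0.

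The genes that HIF1A is known to activate were examined as the readout of the pathway that CITED2 restrains. Of 50 listed genes 44 were measured, of which 3 were called higher, 5 were called lower and 36 did not pass. With the replicate number as a block 6 were called higher and 9 lower, beside 11.1% and 9.21% of all genes in that fit. Without it the shares were 6.82% higher and 11.4% lower, beside 6.84% and 4.89% of 9841 genes, and the median log2 ratio was -0.07, beside -0.0032 over all genes. HK2, which starts glycolysis, rose by 0.60 (SE 0.095, adjusted p = 0.00664 in limma) with both channels above background on 8 arrays, and stood between 0.44 and 0.74 on each, while its other 2 clones stood at 0.36 and 0.29 and did not pass. IGFBP3, which binds insulin-like growth factors, was called higher (adjusted p = 0.00215 in limma). A bound of 1.18-fold is given for its mean over the arrays, since its parental channel was above background on 0 arrays. Its derivative channel was above background on 6 arrays, so the bound does not hold for each array. The IGFBP3 call was lost in the deposited log2 ratios (2.34, adjusted p = 0.0813). ANGPTL4, an inhibitor of lipoprotein lipase, was called higher (adjusted p = 0.00989 in limma). Its parental channel was also above background on 0 arrays and its derivative channel on 3, so its signal secures no difference or fold. The ANGPTL4 call was lost in 3 of 16 alternatives. ENO1, the enolase of glycolysis, was called lower at -0.55 (adjusted p = 0.0168 in limma, lower on 8 of 8 arrays). A second ENO1 clone stood at -0.58 (adjusted p = 0.0623). Before normalisation the mean intensity of ENO1 was 5768 in the derivative channel and 5828 in the parental channel. The ENO1 call failed in 7 of 17 alternatives. Median centring gave -0.29 (adjusted p = 0.377), and the deposited ratios gave -0.44 (adjusted p = 0.199). STC2, a secreted glycoprotein, was called lower at -0.84 (adjusted p = 0.0393), a call that failed in 11 of 17 alternatives.

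The other 3 called lower were read near background. TGFB3, P4HA1 and TF were above it on at most 1 array in either channel, and TF and P4HA1 had values on 4 and 7 arrays. VEGFA, the growth factor for blood vessels, stood at -0.48 and did not pass (adjusted p = 0.0561), and the glucose transporter SLC2A1 stood at -0.57 in its brighter clone and 0.21 in the other (adjusted p = 0.072 and 0.236). The count called lower varied with the arrays used, from 0 to 5 when 1 array was left out. It stayed at 5 without CPR55 replicate 2. It was 0 without CPR20 replicate 2 or CPR55 replicate 1, 1 without CPR70 replicate 1 and 2 without CPR20 replicate 1, either CPR40 array or CPR70 replicate 2.

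Most HIF target genes had higher ratios on the replicate 2 arrays than on the replicate 1 arrays, a split that was examined after the values were known. The deposited array names put the replicate 1 arrays in one number range and the replicate 2 arrays in another, and each set holds all derivatives. P4HA2, a collagen prolyl hydroxylase, had log2 ratios of 1.37, 1.18, 1.79 and 1.98 on the replicate 2 arrays of CPR20, CPR40, CPR55 and CPR70, against -0.24, -0.41, -0.48 and 0.11 on the replicate 1 arrays. LDHA, which makes lactate, had 0.99, 0.83, 1.28 and 1.00 on the replicate 2 arrays, against -0.32, -0.43, -0.41 and -0.28 on the replicate 1 arrays. The glycolytic kinase PGK1 had 0.64, 0.08, 0.96 and 0.58, against -0.62, -1.38, -1.20 and -1.19. The sets did not overlap for any of these 3 genes.

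Over the list, 35 of 43 genes (81.4%) had a higher mean ratio on the replicate 2 arrays, over the arrays with a value, beside 45.3% of 9814 genes. Among those with a value on every array, 10 of 34 (29.4%) had all replicate 2 arrays above all replicate 1 arrays, beside 8.13% of 8203 genes, and 0 had the reverse, beside 11.7%. The median fitted difference was 0.29 on the log2 scale, beside -0.06 over all genes. After adjustment over all probes 0 of the 43 genes passed in limma with the array set as a term, the lowest adjusted p being 0.052 for P4HA2, while 0.0611% of all genes passed as higher and 0.0204% as lower, and 8 of 13148 probes in all (0.0608%). At an unadjusted p under 0.05 stood 14 genes of the list that were higher and 1 that was lower on the replicate 2 arrays, beside 943 and 1315 of all genes. The sets also stood apart beyond this list. The keratin KRT18 had 3.13, 2.29, 2.46 and 3.20 on the replicate 2 arrays of CPR20, CPR40, CPR55 and CPR70, against 0.38, 0.03, 0.26 and 0.59 on the replicate 1 arrays (difference 2.46, SE 0.17, adjusted p = 0.0354 in limma). Of the 6 epithelial markers 4 had a higher mean on the replicate 2 arrays and 1, KRT18, did not overlap. Its part in the difference of the HIF target genes was not tested. A ratio does not tell whether the derivative or the parental RNA differed between the sets.

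For CITED2 the sets overlapped, with a difference of -0.15 (SE 0.17, adjusted p = 0.642 in limma). They also overlapped for EP300 (-0.04, adjusted p = 0.914), CREBBP (-0.11, adjusted p = 0.782) and the brighter HIF1A clone (0.01, adjusted p = 0.991). TFAP2C (0.37, adjusted p = 0.352) and TFAP2A (0.17, adjusted p = 0.525) had the higher ratio on the replicate 2 array in 4 of 4 derivatives, with sets that overlapped, and the other HIF1A clone stood at 0.29 (adjusted p = 0.546). The sets also overlapped for VEGFA, IGFBP3 and HK2 of the HIF target list, at -0.31, -0.04 and 0.07.

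**Figure D5:**
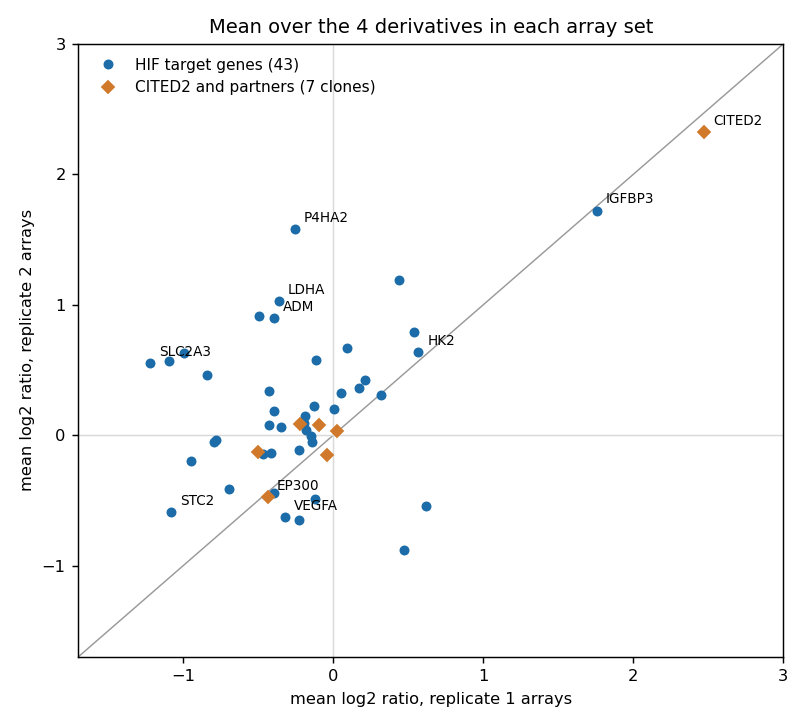
Mean log2 ratio over the 4 derivatives on the replicate 2 arrays (vertical axis) against that on the replicate 1 arrays (horizontal axis), with the line of equality. Of the HIF target genes (circles) 35 of 43 lie on the side of the replicate 2 arrays, and CITED2 (diamond) lies near the line at 2.32 and 2.47.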

How the data were processed

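The genes, gene lists and tests were chosen with earlier results of these data known. Per the file headers, the authors deposited a linear red and green intensity for each spot of 2-colour cDNA arrays, a calibrated ratio and a spot area, which is another measure with no stated unit. The calibrated ratio equals red over green times 1 constant per array, and the deposited log2 values equal its log2 on all 14182 rows within 0.002. The deposited files give no background columns, and the scanner software is not given in the sources used here. Left unused were 8 value columns that belong to 2 arrays without a sample entry.

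A spot whose area was 0 counted as not found and got no value, and 933 control spots were left out. An offset of 50 was added, log2 ratios were normalised by loess within arrays, and spots of a clone were averaged. The 13186 probes with a value in every derivative were fitted with limma 3.58.1 in R 4.3.3 (4 derivative means, 8 arrays, Benjamini-Hochberg adjustment over all probes), which was tested on simulated data. Pairwise p-values were adjusted over all probes and 6 pairs. Fits of the replicate 1 or replicate 2 arrays alone took a single mean over the derivatives, with the spread among derivatives as the error. A call lost or gained there also reflects this change of model. Tests against the parental line leave out its own spread. A gene was represented by its brightest clone, and 5427 of 9962 gene names were current symbols and 2100 older names with 1 match. Named genes are the members, the listed relatives and partners, the called HIF targets with the smallest p and the genes nearest to CITED2, with others named for values already seen. A lower bound sets the dim channel to its background level. The number of arrays limits the precision. Some genes of the lists are not reported here.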

Additional observations from a re-analysis of the deposited data

How the results depend on the processing

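The mean log2 ratio of CITED2 ranged from 2.11 to 2.62 over 17 alternatives, and it moved by more than the spread between arrays of a derivative (0.20) with a larger offset (2.11), with median centring (2.61) and in the deposited log2 ratios (2.62). Its adjusted p for any difference among derivatives stayed above the threshold in each of 15 fits (lowest 0.876). The count of probes changed in the mean was 725 with median centring, 285 in the deposited log2 ratios and from 764 to 1211 when 1 array was left out, with 933 without CPR20 replicate 1, 764 without CPR20 replicate 2 and 875 without CPR70 replicate 2. The count of probes with a slope went up to 4, and that of probes changed between any pair up to 1, when 1 array was left out, from a low of 0. HIF target genes called higher numbered 0 in the deposited log2 ratios, 7 in the replicate 2 arrays taken by themselves and 2 in those of replicate 1. Those called lower numbered 2 with the larger offset, 1 with median centring, 0 in the deposited log2 ratios, 3 with the filter on dim probes, 1 in the replicate 2 arrays taken by themselves, 6 in those of replicate 1 and from 0 to 5 when 1 array was left out.

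With the replicate number as a block 2549 probes changed in the mean, and 6 HIF target genes were called higher and 9 lower. The deviations of the arrays correlated at 0.23 to 0.36 between derivatives, but the labels do not say what the number marks, and the block changed no call of the 7 clones. The cause of these differences was not tested. For HIF1A, TFAP2A and TFAP2C a channel was below background on most arrays, which limits what their ratios show.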

Other observations

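Among the genes related to CITED2 that are reported here, MYC, which CITED2 assists in the control of other genes, also had non-overlapping array sets. Its log2 ratios lay between -1.05 and -0.54 on the 4 replicate 2 arrays, against -0.38 to 0.65 on the 4 replicate 1 arrays (difference -0.90, adjusted p = 0.0748 in limma). The acetyltransferase KAT2A had -0.00, 0.05, 0.50 and 0.10 on the replicate 2 arrays of CPR20, CPR40, CPR55 and CPR70, against 0.65, 0.84, 0.93 and 1.01 on the replicate 1 arrays (difference -0.69, adjusted p = 0.0945). MYC and KAT2A were above background on at least 5 arrays in each channel. All replicate 2 arrays also lay below all replicate 1 arrays for NCOA2, RELA, CREB1 and TFAP2B. Over all genes with a value on every array, 11.7% did so. The CBP/p300 partner KAT2B went the other way (difference 0.70, adjusted p = 0.102 in limma), beside 8.13% of those genes. KAT2B was above background on 0 arrays in either channel.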
